A study of Mus musculus with 6 samples.

Results

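The cluster of peptidylarginine deiminase genes on mouse chromosome 4 was examined through its transcription start sites. In cap analysis of gene expression (CAGE) only the capped first bases of each RNA are read, so a tag shows where a transcript began, and closely spaced tags form a peak that stands for a promoter. The region covered every listed peak between positions 140280000 and 140520000, which is 25 of 158966 peaks. The genes were placed by approximate 5′ ends: Padi4 near 140330120, Padi3 near 140366560 and Padi1 near 140401700 on the minus strand, and Padi2 near 140462260 on the plus strand. A peak was counted for a gene when it lay on that gene's strand and within 1000 bp of its position, which held for 5 peaks. The cluster was chosen by its values in the very comparison described below, the low Padi4 level in 1 group of libraries among them, so differences between the groups are given as a description without p-values, and counts of calls stand only beside the share over all peaks.

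All libraries came from Ba/F3, a line of pro-B cells of BALB/c origin in which oncogenic kinases are often studied, grown in serum-supplemented medium. One group of 3 libraries carried FLT3-ITD, the FLT3 receptor tyrosine kinase with an internal tandem duplication. The other group of 3 carried FLT3-ITD/D835Y, the same duplication together with a substitution in the activation loop of the kinase, and is called the double mutant here. The sources used here do not say how FLT3 was introduced, whether a group is 1 clone, or whether replicates are separate cultures. The study compared promoters between these groups. Libraries held between 5884258 and 13977941 tags, so that 1 tag was worth 0.0715 to 0.170 CPM, the deposited unit (tags scaled to a common total). The deposited tables name peaks by position only, so markers of pro-B cells, granulocytes or keratinocytes were not read.

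Peptidylarginine deiminases are calcium-dependent enzymes that turn arginine residues of proteins into citrulline, which removes a positive charge. Padi4 is known for acting on histones in the nucleus and for its part in the release of chromatin by neutrophils, and it is expressed mainly in granulocytes and their precursors. Padi2 is the most widely expressed member, while Padi1 and Padi3 are known from the epidermis and hair follicle, where they act on structural proteins such as filaggrin and trichohyalin. Padi6, the oocyte member, neighbours Padi4 in the RefSeq gene table. No start position was set for Padi6, and no peak was assigned to it.

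The 250 bases before each annotated start are shown because the members differed both in activity and in what these stretches hold. All 4 genes matched 1 entry of RefSeq's promoter table, whose build is GRCm38.p6, and the coordinates of these sequences are on that build and cannot be set beside the peak positions. Sequences run 5′ to 3′ on the strand of the gene, and capitals mark matches to the motifs that were searched. Padi4 is at chr4:140774204-140774453 on the minus strand, Padi3 at chr4:140810649-140810898 on the minus strand, Padi1 at chr4:140845779-140846028 on the minus strand and Padi2 at chr4:140906110-140906359 on the plus strand.
Padi4: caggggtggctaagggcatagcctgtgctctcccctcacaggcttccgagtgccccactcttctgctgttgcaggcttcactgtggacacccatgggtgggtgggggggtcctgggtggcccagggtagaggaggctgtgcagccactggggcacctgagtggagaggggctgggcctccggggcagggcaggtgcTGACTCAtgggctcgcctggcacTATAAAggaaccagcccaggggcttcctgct
Padi3: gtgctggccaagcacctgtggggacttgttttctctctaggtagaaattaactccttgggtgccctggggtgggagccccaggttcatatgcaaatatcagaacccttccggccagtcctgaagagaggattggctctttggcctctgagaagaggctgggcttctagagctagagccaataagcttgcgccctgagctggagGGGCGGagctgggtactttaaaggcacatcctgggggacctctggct
Padi1: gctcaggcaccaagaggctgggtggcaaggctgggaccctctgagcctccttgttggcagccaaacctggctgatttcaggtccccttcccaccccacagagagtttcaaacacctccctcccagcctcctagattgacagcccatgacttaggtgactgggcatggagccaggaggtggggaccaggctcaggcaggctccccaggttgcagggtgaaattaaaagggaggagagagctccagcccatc
Padi2: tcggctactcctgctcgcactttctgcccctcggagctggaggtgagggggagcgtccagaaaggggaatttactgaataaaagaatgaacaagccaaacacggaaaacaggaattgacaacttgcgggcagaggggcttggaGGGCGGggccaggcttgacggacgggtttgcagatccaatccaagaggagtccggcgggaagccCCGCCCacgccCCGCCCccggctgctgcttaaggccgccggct

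Padi4, the member with the most tags, held a TATA box (TATAAA) that began 31 bases before the start and an AP-1 motif (TGANTCA) that began 54 bases before it. Over the 32851 promoters of the table, 12.4% held TATAAA and 6.75% held TGANTCA in the same 250 bases, searched on both strands. Padi3 held 1 GC box (GGGCGG) at 47 bases, and Padi2 held 3, at 107, 43 and 32 bases, where 32.7% of all promoters held at least 1. The STAT motif TTCNNNGAA, in 7.02% of promoters, and the ETS motif GAGGAA, in 23.3%, had no match in these letters for any of the 4 genes. Padi1 matched none of the 5 motifs. Padi2 had 17 CpG dinucleotides against a median of 6 over all promoters, while Padi4 and Padi3 had 3 each and Padi1 had 0. No 2 of these motifs overlapped in these sequences, and a match describes the letters only.

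Padi4 had a single start peak, 17 bp wide, on the minus strand at 140330111 to 140330127 of the deposited coordinates. Its level was 54.7, 55.9 and 54.0 CPM in FLT3-ITD replicates 1, 2 and 3, from 561, 329 and 615 tags. In the double mutant it was 4.95, 0.358 and 3.06 CPM in replicates 1, 2 and 3, from 59, 5 and 31 tags. The groups were far apart, and the lowest FLT3-ITD library was 10.9 times the highest double-mutant library. Group means were 54.9 ± 0.99 and 2.79 ± 2.3 CPM (SD, n = 3 each), a ratio of 19.7 and a log2(CPM + 1) difference of -4.12 (SE 0.60). Here and below the SE is the moderated one of the limma fit. It draws on the variance of all tested peaks and is not the spread of these libraries alone. In such bulk RNA, fewer cells with Padi4 transcription and less Padi4 RNA per cell cannot be told apart.

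FLT3-ITD libraries agreed closely on Padi4, with a coefficient of variation of 1.80%, and their exact 95% Poisson intervals, which cover counting error only, overlapped and lay between 49.8 and 62.3 CPM. Double-mutant libraries did not, with a coefficient of variation of 82.7%. Replicate 2 was the low one: its interval of 0.116 to 0.835 CPM lay under those of replicate 1 (3.77 to 6.39 CPM) and replicate 3 (2.08 to 4.35 CPM). Without it the double-mutant mean was 4.01 CPM, and the ratio of the means fell from 19.7 to 13.7. Replicate 2 was also the lowest double-mutant library at 64.9% of the 456 peaks that were called lower by at least 1 on the log2 scale, against 31.5% of all 19162 tested peaks. Those 456 peaks were chosen by low double-mutant values in this same contrast. Part of the excess can follow from that choice, so it is a description only.

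**Figure D1:**
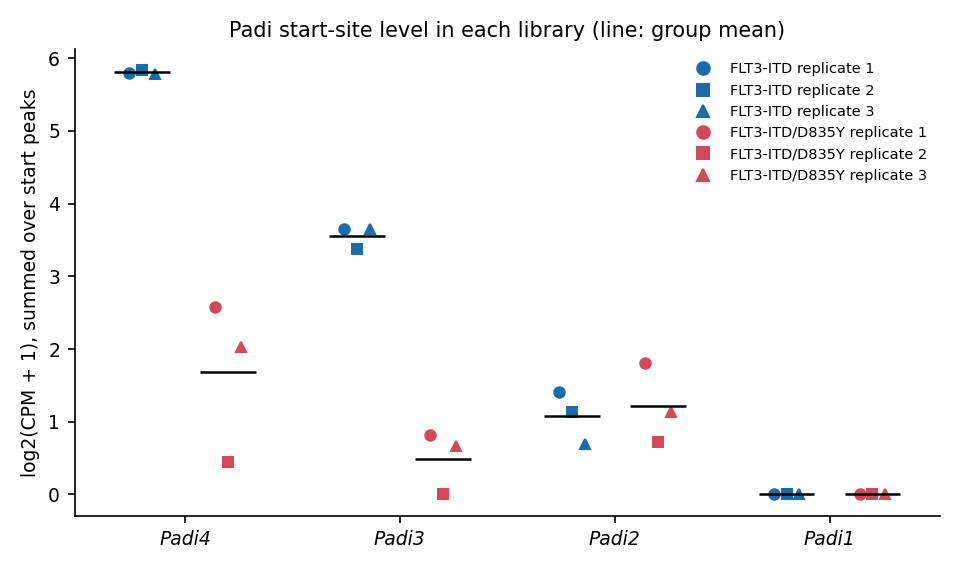
Start-site level of each Padi gene as log2(CPM + 1), vertical axis, in each of the 6 libraries, with a line at each group mean. Padi4 and Padi3 are lower in all 3 double-mutant libraries than in any FLT3-ITD library, the Padi2 groups overlap, and Padi1 is at 0 in every library.

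Padi3, the hair follicle member, also had 1 start peak, on the minus strand at 140366561 to 140366564 and 36.4 kb from Padi4. At 4 bp it was among the narrowest of the tested peaks: 1.48% were that narrow or narrower, and their median width was 35.0 bp. Over all listed peaks the median was 16.0 bp. How peaks were defined is not stated, so these widths describe the listed peaks only. The Padi3 level was 11.5, 9.35 and 11.6 CPM in FLT3-ITD replicates 1, 2 and 3, from 118, 55 and 132 tags. The double mutant had 0.755, 0 and 0.593 CPM, from 9, 0 and 6 tags. All FLT3-ITD libraries lay above all double-mutant libraries, and double-mutant replicate 2 was again the lowest. The 0 tags of that library allow a level of up to 0.215 CPM by the floor of 3 tags. The exact two-sided 95% Poisson interval used for the other counts allows up to 0.264 CPM. That interval overlapped the one of double-mutant replicate 3 (0.218 to 1.29 CPM). It lay under the one of double-mutant replicate 1 (0.345 to 1.43 CPM). Means were 10.8 ± 1.3 and 0.449 ± 0.40 CPM (SD, n = 3 each), a ratio of 24.1, or 16.0 without replicate 2, and a log2(CPM + 1) difference of -3.06 (SE 0.22).

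The difference on this scale is smaller for Padi3 than for Padi4 while the ratio of means is larger, because adding 1 to values near 0 compresses the change of a low peak. With 0.5 added in place of 1, the difference was -3.67 for Padi3 and -4.44 for Padi4. On the recovered tags, edgeR gave -4.71 and DESeq2 -4.65 for Padi3, against -4.38 and -4.34 for Padi4.

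The balance between both genes was a further measure, since it does not depend on how far they are lowered together. Padi3 made up 17.4%, 14.3% and 17.7% of the tags at the Padi3 and Padi4 starts in FLT3-ITD replicates 1, 2 and 3. In the double mutant the share was 13.2% in replicate 1 (9 of 68 tags), 0% in replicate 2 (0 of 5 tags) and 16.2% in replicate 3 (6 of 37 tags). The exact (Clopper-Pearson) 95% intervals of the double-mutant libraries, 6.23% to 23.6%, 0% to 52.2% and 6.19% to 32.0%, all took in the 16.9% of the pooled FLT3-ITD libraries (305 of 1810 tags). Pooled, the double mutant had a share of 13.6% (15 of 110 tags), with an interval of 7.84% to 21.5% that also took in the FLT3-ITD share. At this depth a change of balance between Padi3 and Padi4 was not detected. The intervals cover counting error only, not the spread between libraries, and do not show that the balance was the same.

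**Figure D2:**
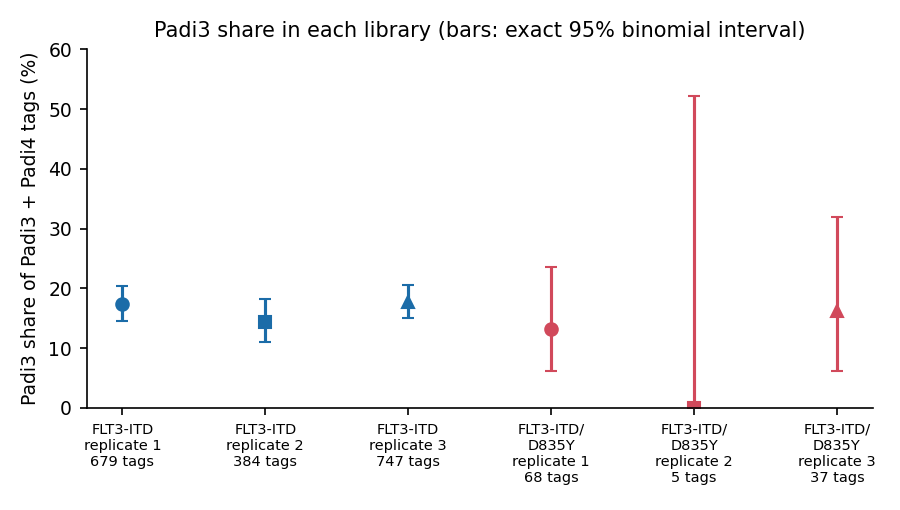
Padi3 share of the tags at the Padi3 and Padi4 start peaks, in percent, for each library with its exact 95% binomial interval and the number of tags below it. FLT3-ITD libraries lie between 14.3% and 17.7%, and the intervals of the double mutant are wide because only 5 to 68 tags remained.

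Padi2, the widely expressed member, had 2 listed start peaks on the plus strand. The one at 140462250 to 140462268, which contains the position set for the gene, held 0 tags in every library. All tags fell in the neighbouring peak at 140462279 to 140462297. Its level was 1.66, 1.19 and 0.614 CPM in FLT3-ITD replicates 1, 2 and 3, from 17, 7 and 7 tags, and 2.52, 0.644 and 1.19 CPM in the double mutant, from 30, 9 and 12 tags. The groups overlapped. Means were 1.15 ± 0.52 and 1.45 ± 0.96 CPM (SD, n = 3 each), with a log2(CPM + 1) difference of 0.14 (SE 0.28). That difference changed sign when single libraries were left out, to -0.05 without FLT3-ITD replicate 3 and to -0.15 without double-mutant replicate 1. Double-mutant replicate 2 was the lowest of its group here too, at 9 tags. Its Poisson interval (0.294 to 1.22 CPM) overlapped that of double-mutant replicate 3 (0.613 to 2.07 CPM). It lay under that of double-mutant replicate 1 (1.70 to 3.59 CPM).

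Padi1, the epidermal member, had 1 listed start peak, on the minus strand at 140401685 to 140401700. It held 0 of 63548800 tags over the 6 libraries. By the floor of 3 tags, a count of 0 allows up to 0.215 to 0.510 CPM in a single library and up to 0.0472 CPM over all of them. No comparison of groups can be made for Padi1.

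Each CAGE tag is 1 transcript end, so levels of different genes need no correction for length, and they were compared in CPM within each library. In every FLT3-ITD library the order was Padi4, then Padi3, then Padi2, with Padi1 at 0. In double-mutant replicates 1 and 3 the order was Padi4, Padi2, Padi3. In double-mutant replicate 2, Padi2 (9 tags) stood above Padi4 (5 tags) and Padi3 (0 tags). Poisson intervals of Padi2 and Padi4 overlapped in that library, at 0.294 to 1.22 and 0.116 to 0.835 CPM. In replicate 3, Padi2 (0.613 to 2.07 CPM) overlapped with Padi3 (0.218 to 1.29 CPM), so neither pair of neighbours in the order differed beyond counting error. In replicate 1 they did not overlap: Padi2 was at 1.70 to 3.59 CPM and Padi3 at 0.345 to 1.43 CPM.

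Most of the region was silent. Of the 25 peaks, 17 held no tag in any library, among them all 4 below Padi4 and all 3 between Padi3 and Padi1, while no peak was listed between Padi4 and Padi3 or between Padi1 and Padi2. More than 1000 bp beyond the Padi2 position, 7 of 12 peaks held no tag. A minus-strand peak nearer to that position, at 140462693 to 140462700, held no tag either. A plus-strand peak at 140501295 to 140501347 held 0, 0 and 1 tags in FLT3-ITD and 3, 5 and 2 tags in the double mutant, too few to enter the test. Pooled, that was 1 of 27538403 tags in FLT3-ITD against 10 of 36010397 in the double mutant. By the Poisson interval, the 0 tags of FLT3-ITD replicate 2 allow up to 0.627 CPM. The highest double-mutant library, replicate 2, was at 0.358 CPM, and nothing is read from this peak. The plus-strand peak at 140517197 to 140517208 held 9 tags in all.

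A group of plus-strand peaks near the upper edge of the region gave levels beside which the Padi genes can be read. The most active, at 140517319 to 140517330, had 20.5, 18.0 and 20.5 CPM in FLT3-ITD and 17.8, 14.8 and 20.8 CPM in the double mutant. Its groups overlapped, with means of 19.7 ± 1.4 and 17.8 ± 3.0 CPM (SD, n = 3 each) and a log2(CPM + 1) difference of -0.15 (SE 0.14). The peak at 140517216 to 140517227 went from 1.67 ± 0.19 to 0.815 ± 0.090 CPM, a difference of -0.56 (SE 0.18), with groups that did not overlap. Its call was lost with DESeq2, with no filter on low values, and when any single library was left out while the same peaks were tested (differences -0.50 to -0.61). The peak at 140517287 to 140517317 had overlapping groups, at 1.15 ± 0.34 and 0.814 ± 0.18 CPM.

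Across the series, 19162 peaks reached 1 CPM in at least 3 libraries and were tested with limma, and 6 of the 25 peaks of the region were among them. Of these 6, 3 were called at an adjusted p under 0.05 by limma, all lower in the double mutant: Padi4, Padi3 and the peak at 140517216. Among all tested peaks, 24.4% were called and 10.4% were called lower. The same 3 peaks had groups that did not overlap, as had 17.6% of all tested peaks in this direction. Padi3 and the peak at 140517216 entered the test through the FLT3-ITD libraries alone, since they stayed under 1 CPM in every double-mutant library, so a peak of this kind had to differ in order to be tested. The Padi4 difference was the 4th largest fall and that of Padi3 the 17th among the 19162. Since the region was also chosen from this contrast, nothing is read from these calls, shares or ranks. Without FLT3-ITD replicate 2, the library with the fewest tags, 2801 of 18466 peaks were called over the series. In the region 3 peaks were then tested and 1, Padi4, was called, while Padi3 and the peak at 140517216 no longer passed the filter.

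**Figure D3:**
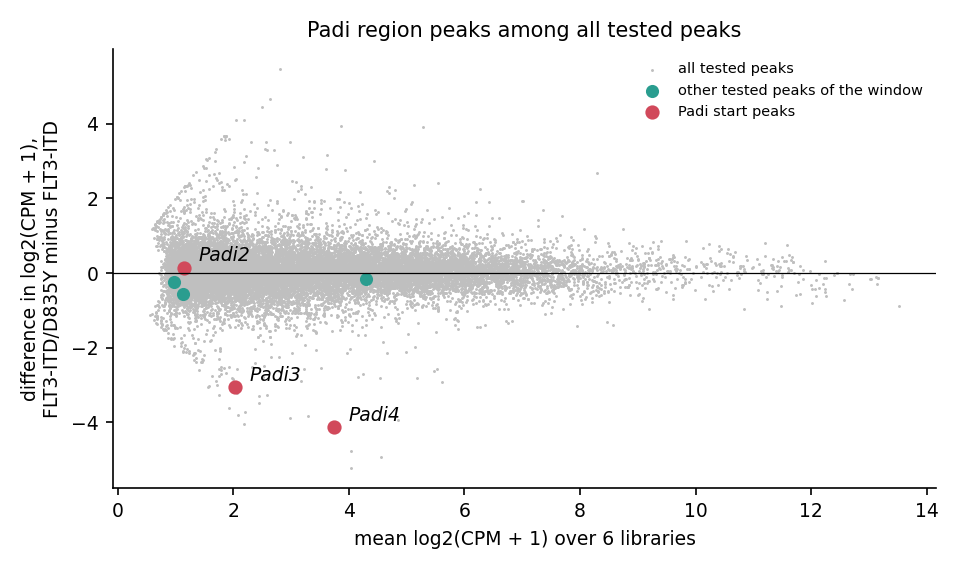
Difference in log2(CPM + 1), double mutant minus FLT3-ITD, against the mean log2(CPM + 1) over 6 libraries for all 19162 tested peaks (grey), with the 6 tested peaks of the region in colour. Padi4 (-4.12) and Padi3 (-3.06) lie at the lower edge of the cloud, while Padi2 (0.14) and the other peaks of the region lie within it. The region was chosen from this contrast, so these places are a description only.

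The bounds of the region fell among weak peaks. The first and the last peak inside it held 0 tags. Just outside, the plus-strand peak at 140277083 to 140277108 held 0.604 ± 0.22 CPM in FLT3-ITD and 0.399 ± 0.19 CPM in the double mutant, and that at 140522425 to 140522430 held 2.79 ± 1.4 and 1.23 ± 0.15 CPM (SD, n = 3 each).

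No tested peak on either side was as far below FLT3-ITD in the double mutant as Padi4 or Padi3. Since the region was chosen from this contrast, that comparison is a description only. Within 1 Mb below the region 11 peaks were tested, 10 with a negative difference, with a median of -0.45 and a range from -1.09 to 0.07, and 5 were called lower and 0 higher by limma. All but 1 of these 11 lay in a dense group 71.8 to 73.9 kb from the Padi4 start, whose most active member (plus strand, 140257437 to 140257463) reached 120.7 ± 3.4 CPM in FLT3-ITD against 88.2 ± 3.0 CPM (SD, n = 3 each). Within 1 Mb above the region 21 peaks were tested, with a median of -0.10 and a range from -0.98 to 2.34, and 2 were called lower and 1 higher. The one called higher (plus strand, 140652853 to 140652865) was at 0 CPM in all FLT3-ITD libraries and 4.07 ± 0.42 CPM in the double mutant. Of all 19162 tested peaks, 8566 had a negative difference, 1985 (10.4%) were called lower and 2695 were called higher. The median over all tested peaks was 0.05, and over the 1123 tested peaks of chromosome 4 it was 0.13. Every peak given by position in this paragraph was picked after its values were seen.

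**Figure D4:**
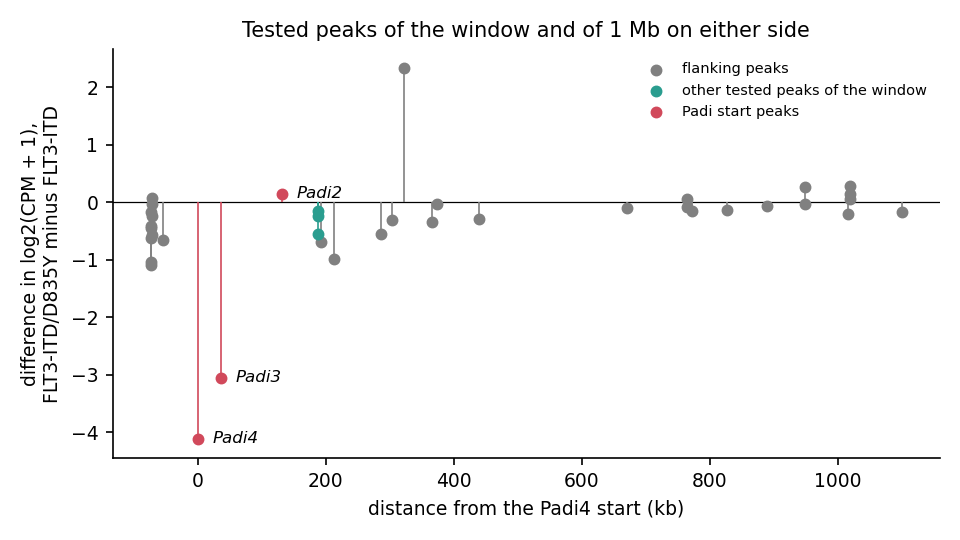
Difference in log2(CPM + 1), double mutant minus FLT3-ITD, of each tested peak of the region and of 1 Mb on either side, against its distance in kb from the Padi4 start. Padi4 and Padi3, at 0 and 36.4 kb, are lower than every flanking peak, of which the lowest is at -1.09, and Padi2, at 132.1 kb, is near 0. The region was chosen from this contrast, so its distance from the flanking peaks is a description only.

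Peaks elsewhere were ranked by how closely their values over the 6 libraries followed Padi4. The measure was the root mean square difference of log2(CPM + 1) after each peak was centred on its own mean, among 10247 peaks with a mean of at least 5 CPM. Closest was the plus-strand peak at 84820615 to 84820619 of chromosome 2, at a distance of 0.23 and with 112.8 ± 22.9 against 8.24 ± 6.1 CPM (SD, n = 3 each). The minus-strand peak at 135271185 to 135271254 of chromosome 3 followed at 0.34. Next came the minus-strand peak at 54558014 to 54558065 of chromosome X at 0.37, with 36.2 ± 5.1 against 1.73 ± 0.99 CPM. The minus-strand peak at 88116155 to 88116166 of chromosome 6 was at 0.39, with 29.3 ± 1.7 against 1.17 ± 0.91 CPM, and the plus-strand peak at 98252702 to 98252714 of chromosome 13 at 0.43. Padi3 lay at 0.67 by the same measure. In all 5 of these peaks, as in Padi4, Padi3 and Padi2, double-mutant replicate 2 was the lowest of its group. The same held at every other tested peak of the region, so it is not particular to the Padi starts. Among them was the peak at 140517319, with overlapping groups and 17.8, 14.8 and 20.8 CPM in the double mutant. For the 5 peaks this largely follows from the ranking, which chose them for following Padi4. All share the 6 libraries, so this likeness describes their profile in these samples only.

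**Figure D5:**
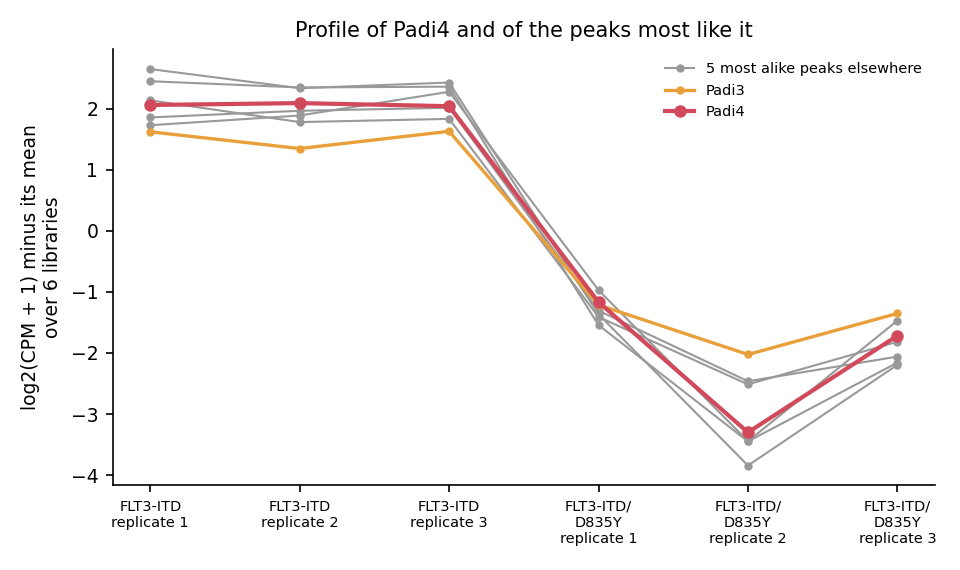
Profile of Padi4, of Padi3 and of the 5 peaks most like Padi4 as log2(CPM + 1) minus the mean of each over the 6 libraries, which stand along the horizontal axis. All 7 profiles are high in the FLT3-ITD libraries and reach their lowest point in double-mutant replicate 2. For the 5 peaks this largely follows from their choice by likeness to Padi4.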

How the data were processed

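The authors deposited 1 CPM value per peak and library, and each table sums to 1000000 over its 158966 peaks. TopHat2 2.0.14, edgeR 3.24.3 and the builds mm9 and hg19 appear in the submitters' processing notes without a role. The definition of peaks is not stated in the sources used here. Division by the smallest value above 0 gave whole tags (within 0.01) for 100% of values in all 6 libraries. For double-mutant replicate 3 that step is close to 0.1, and its tags rest on the many decimals deposited.

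Gene names rest on the positions given for the 5′ ends. The distances between neighbouring starts differed by at most 15.5 bp from those between RefSeq's starts on GRCm38.p6, and no coordinate was converted.

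Peaks that reached 1 CPM in at least 3 libraries were tested with limma 3.58.1 (trend, robust; R 4.3.3) on log2(CPM + 1), with no term but the group. Each SE is limma's moderated one, in which the variance of a peak is drawn toward the trend over all tested peaks. Two-sided p-values received Benjamini-Hochberg adjustment over all 19162 peaks, with a threshold of 0.05. The spread they rest on is that of these samples and may be technical only. The step was tested on simulated data. edgeR 4.0.16 (4519 peaks called) and DESeq2 1.42.0 on tags, TMM scaling, a pseudocount of 0.5, no filter, a replicate block and left-out libraries were alternatives. Peaks within 1000 bp of a position were described if they held a tag, other peaks of the region if tested, and the 5 peaks most like Padi4 by position. Members and lists were chosen with earlier results of these data known. Intervals (scipy 1.17.1) are at 95% and cover counting error only.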

Additional observations from a re-analysis of the deposited data

How the results depend on the processing

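Differences ran from -4.57 to -3.51 for Padi4 and from -4.71 to -2.81 for Padi3 over the alternatives that tested them. Their calls did not change, which is no independent support, since this contrast chose the region and Padi3 passed the filter through FLT3-ITD alone. Without a FLT3-ITD library the filter left Padi3 out, since 2 libraries then reached 1 CPM. With the filter kept on all 6 libraries, an alternative chosen after seeing the data, Padi3 was tested each time. The summed Padi3 difference was -3.67 with a pseudocount of 0.5. Padi2, never called, ran from -0.15 to 0.39 with a library left out and was at -0.05 without FLT3-ITD replicate 3. Peak distances of 200 or 5000 bp changed no level. Called peaks of the region numbered 3, and 1 to 2 with a library left out, as fewer were tested or the peak at 140517216 lost its call (differences -0.61 to -0.50). That peak also lost it with DESeq2 (-1.09), with no filter (-0.56) and with the replicate block (-0.56). Over the series, left-out libraries gave 2801 to 4844 called peaks, or 3076 to 5209 with the filter on all 6 libraries, and the cause was not tested. TMM scaling moved the median of all peaks from 0.05 to 0.01 and the share of called peaks that were higher from 57.6% to 49.9%. With a replicate block 4109 peaks were called, 2 of them in the region. The replicate numbers were not used for pairing: after subtraction of group means, libraries with equal numbers had correlations of -0.005, 0.019 and 0.193, and some libraries correlated better with another number. Depth limits Padi2, Padi1 and double-mutant Padi3, where 1 tag was worth up to 0.170 CPM.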
